A study of Mus musculus with 9 samples.

Results

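*Txnip* and 7 genes that act with it in the response of a cell to glucose were examined in 5TGM1-Cas9 mouse myeloma cells whose glucose transporter genes had been targeted with guide RNAs (gRNAs). The 8 genes were taken by symbol from a list of *Txnip*, *Arrdc3*, *Arrdc4*, *Klf10*, *Klf11*, *Mlx*, *Mlxip* and *Mlxipl*, out of 53077 genes listed for each sample. The genes were chosen by their role, with earlier results of these samples known, and *Txnip* was selected on its lower estimated counts in *Slc2a1* gRNA cultures than in controls, so that the levels of *Txnip*, and the values of all 8 genes in both comparisons that use the *Slc2a1* gRNA cultures, are given here as a description without a p-value. Other genes are given with theirs. Of the 8 genes, 6 had enough counts to be compared between populations.

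Glucose that enters a cell is phosphorylated to glucose 6-phosphate, and this sugar phosphate is sensed by MondoA, the product of *Mlxip*, or by its relative ChREBP, the product of *Mlxipl*. Each of these factors pairs with Mlx, enters the nucleus and binds carbohydrate response elements, which are paired E-box-like sequences in the promoters of its target genes. *Txnip* is the best known of those targets. Its product is an alpha-arrestin that binds thioredoxin and takes GLUT1 and GLUT4 off the cell surface, so that a glucose-rich cell limits its own glucose uptake. *Arrdc4* and *Arrdc3* encode relatives of Txnip, and *Klf10* and *Klf11* encode Krüppel-like repressors of transcription that have also been described as glucose-responsive.

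RNA was sequenced from cultures of 5TGM1, a plasma cell tumor line of the mouse that was made to express Cas9. The control cultures received a *Rosa26* gRNA, the second population received an *Slc2a1* gRNA, and the third received 5 gRNAs, which target *Slc2a1* together with *Slc2a3*, *Slc2a5*, *Slc2a6* and *Slc2a8*, with 3 replicates in each. *Slc2a1* encodes GLUT1. All 3 populations carried Cas9 and a gRNA vector, and the tables come from bulk cultures for which the methods state no separation of edited from unedited cells. In its *Slc2a1* gRNA cultures the study still found many GLUT1-positive cells. In its cultures with 5 gRNAs only a part of the sequences of each target carried frameshifts. The term deleted populations, used below, thus stands for partly edited cultures. For the population with 5 gRNAs, the study first made and sorted a line with the other 4 gRNAs and added the *Slc2a1* gRNA last, so that its history differs from that of the other cultures and cannot be told apart from its gRNAs. In such bulk RNA, fewer cells that express a gene and less RNA per cell cannot be told apart.

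Estimated counts summed to between 21838805 and 30537105 per sample, of which mitochondrial genes took 4.84 to 11.1%. Of 8 plasma cell markers, 7 had a mean of at least 1 TPM (a transcript level corrected for gene length and library depth) over the 9 samples, and the 8 together summed to between 743 and 1100 TPM in control cultures, to between 672 and 889 TPM with the *Slc2a1* gRNA and to between 824 and 997 TPM with 5 gRNAs. The sums of 5 mature B cell, 4 T cell, 4 macrophage and 4 fibroblast markers did not exceed 1.76 TPM in any sample, and each of these genes had a mean under 1 TPM. *Slc2a1* itself, whose transcript a frameshift need not remove, was at 59.5, 26.9 and 32.9 TPM in control replicates 1, 2 and 3, at 37.1, 28.3 and 31.4 TPM with the *Slc2a1* gRNA, and at 24.1, 31.5 and 19.1 TPM with 5 gRNAs. Its log2 fold change (log2FC) against control was -0.21 with a standard error (SE) of 0.18 (adjusted p = 0.544 by edgeR's quasi-likelihood test) with the *Slc2a1* gRNA and turned to 0.04 without control replicate 1. With 5 gRNAs *Slc2a1* fell (log2FC -0.66, SE 0.18, adjusted p = 0.029), a call that was lost without control replicate 1 or 3 and without replicate 1 or 3 of the population with 5 gRNAs (adjusted p up to 0.222), and also without the replicate number as a block in the fit (adjusted p = 0.101).

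In control cultures *Txnip* was by far the most abundant of the 8 transcripts per unit of length. Its mean was 183.3 ± 29.1 TPM (SD, n = 3), which was 6.79 times that of *Mlx*, at 27.0 ± 2.67 TPM (SD, n = 3), and their ranges did not overlap. *Mlxip* followed at 12.7 ± 2.45 TPM, *Klf10* at 9.11 ± 1.58 TPM, *Arrdc3* at 6.16 ± 1.68 TPM and *Klf11* at 5.39 ± 1.58 TPM (SD, n = 3 each). Among these last 4 genes, each pair of neighbours overlapped in the control samples, so the order of neighbours is not set by these data, while all control samples of *Mlxip* were above those of *Arrdc3* and *Klf11*, and all of *Klf10* were above those of *Klf11*. The range of *Mlx* lay above that of *Mlxip*. *Mlxipl* and *Arrdc4* were at or near 0. Of the pair of glucose-sensing factors, these cells thus had transcript for MondoA and almost none for ChREBP.

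*Txnip* lies on chromosome 3 of GRCm38 from 96557957 to 96561883 on the plus strand (GENCODE M21). Control replicates 1, 2 and 3 had 215.7, 174.8 and 159.5 TPM, from 17678, 14490 and 13111 estimated counts. With the *Slc2a1* gRNA the 3 replicates had 23.8, 29.1 and 66.4 TPM, from 1527, 2050 and 4760 estimated counts. With 5 gRNAs they had 88.5, 106.1 and 72.6 TPM, from 7382, 6551 and 5332 estimated counts. Every control sample was thus above every sample of both other populations, and replicate 3 of the *Slc2a1* gRNA cultures had more than the other two of its group. The mean TPM of control cultures was 4.61 times that of *Slc2a1* gRNA cultures and 2.06 times that of cultures with 5 gRNAs.

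As a share of the transcriptome, *Txnip* took 0.0629, 0.0533 and 0.0429% of all estimated counts in the control replicates, and 0.00696, 0.00887 and 0.0197% in the *Slc2a1* gRNA replicates. Its share lay between 0.0193 and 0.0304% in the replicates with 5 gRNAs. Among the genes with a count in the same sample, its TPM stood at the 97.3 to 98.2 percentile in control cultures, at the 82.5 to 93.7 percentile with the *Slc2a1* gRNA and at the 93.4 to 96.2 percentile with 5 gRNAs.

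In the fit over all genes, which works on estimated counts, *Txnip* stood at a log2FC of -2.11 (SE 0.33) in *Slc2a1* gRNA cultures against control and was lower in all 3 same-numbered pairs. This fold change was -2.81 without *Slc2a1* gRNA replicate 3 and -1.68 without *Slc2a1* gRNA replicate 1. With 5 gRNAs the log2FC against control was -0.95 (SE 0.31), again lower in all 3 pairs, and it moved to -0.64 without replicate 3 and to -1.19 without replicate 1 of that population. With 5 gRNAs set against the *Slc2a1* gRNA, the log2FC was 1.16 (SE 0.33), and 2 of 3 pairs were higher with 5 gRNAs. Here the scale mattered for the overlap. On TPM the lowest sample with 5 gRNAs (72.6) was above the highest sample with the *Slc2a1* gRNA (66.4), whereas on TMM-scaled counts (CPM) replicate 3 with 5 gRNAs (189) was just below replicate 3 with the *Slc2a1* gRNA (195). This last fold change was 1.85 without *Slc2a1* gRNA replicate 3 and 0.74 without *Slc2a1* gRNA replicate 1.

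**Figure D1:**
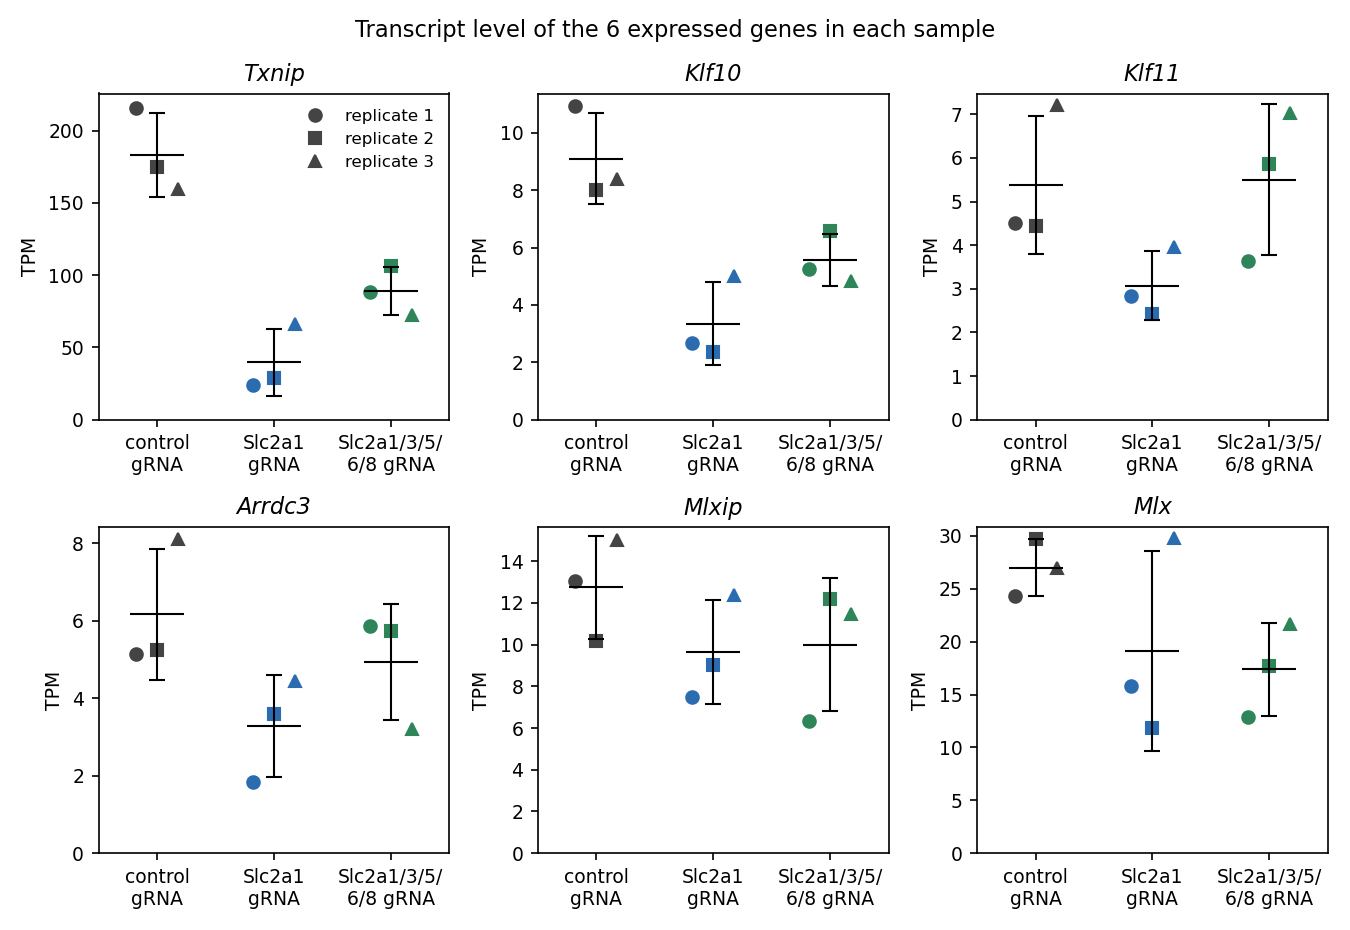
Transcript level (TPM, linear axis from 0) of 6 of the 8 genes in each of the 9 samples, by population. Points are samples, with the replicate number given by the shape, and the horizontal line and bar are the mean and SD of 3 replicates. *Txnip* and *Klf10* separate the control samples from both other populations, while *Mlxip* overlaps throughout.

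A part of the exons of *Txnip*, 19.4% of its exonic bases, overlaps exons of *Gm15441* on the other strand. The sources used here do not say that reads were counted by strand, and reads of an overlapping pair cannot then be told apart. *Gm15441* was given between 2 and 23 estimated counts per sample, against at least 1527 for *Txnip*.

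*Klf10* and *Klf11* encode related zinc finger repressors, and both were lower with the *Slc2a1* gRNA, while with 5 gRNAs every *Klf10* sample and not every *Klf11* sample was below the controls. *Klf10* is on chromosome 15 of GRCm38 from 38291463 to 38300706 on the minus strand. Control replicates had 10.9, 8.01 and 8.39 TPM, from 853, 756 and 772 estimated counts. *Slc2a1* gRNA replicates had 2.68, 2.35 and 5.02 TPM, from 185, 190 and 397 estimated counts. Replicates with 5 gRNAs had 5.24, 6.58 and 4.85 TPM, from 488, 432 and 396 estimated counts. As for *Txnip*, the control samples were above all others, and *Slc2a1* gRNA replicate 3 was the highest of its group.

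The log2FC of *Klf10* was -1.26 (SE 0.24) in *Slc2a1* gRNA cultures against control, and it was -1.02 without *Slc2a1* gRNA replicate 1 and -1.75 without *Slc2a1* gRNA replicate 3. With 5 gRNAs it was -0.57 (SE 0.23), with a 95% interval from -1.07 to -0.08. That difference did not pass the threshold of 0.05 after adjustment over 13834 genes (adjusted p = 0.106 by edgeR), although the 3 samples did not overlap the controls. It did pass when the *Slc2a1* gRNA samples were left out of the fit (adjusted p = 0.00998) and with no filter on low counts (adjusted p = 0.00245). The fold change was -0.32 without replicate 3 and -0.74 without replicate 1 of the population with 5 gRNAs. In the comparison of both deleted populations *Klf10* stood at a log2FC of 0.68 (SE 0.24), with overlapping groups, and at 0.44 without *Slc2a1* gRNA replicate 1 and 1.17 without *Slc2a1* gRNA replicate 3.

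*Klf11* is on chromosome 12 of GRCm38 from 24651274 to 24662789 on the plus strand. Control replicates had 4.50, 4.44 and 7.21 TPM, from 582, 578 and 918 estimated counts. *Slc2a1* gRNA replicates had 2.83, 2.43 and 3.97 TPM, from 287, 280 and 433 estimated counts, all below the controls. Replicates with 5 gRNAs had 3.63, 5.86 and 7.03 TPM, from 466, 550 and 789 estimated counts, a range that overlapped that of the controls. The log2FC against control was -0.65 (SE 0.12) with the *Slc2a1* gRNA.

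With 5 gRNAs *Klf11* stood at a log2FC of 0.07 against control (SE 0.12, adjusted p = 0.728 by edgeR), with a 95% interval from -0.19 to 0.32 and a sign that turned without replicate 2 of that population (-0.01). With 5 gRNAs against the *Slc2a1* gRNA its log2FC was 0.72 (SE 0.12), a value that rests on the same *Slc2a1* gRNA samples as the -0.65 above. It was higher with 5 gRNAs in 3 of 3 same-numbered pairs, and the groups did not overlap on CPM, whereas on TPM replicate 1 with 5 gRNAs (3.63) was below *Slc2a1* gRNA replicate 3 (3.97).

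Among the 8 genes, the alpha-arrestins other than *Txnip* gave 1 expressed gene and 1 without a count. *Arrdc3*, whose product binds activated receptors and ubiquitin ligases, is on chromosome 13 of GRCm38 from 80883384 to 80896042 on the plus strand. Control replicates had 5.14, 5.24 and 8.10 TPM, from 610, 679 and 671 estimated counts. *Slc2a1* gRNA replicates had 1.84, 3.58 and 4.43 TPM, from 188, 400 and 426 estimated counts, all below the controls. Replicates with 5 gRNAs had 5.86, 5.73 and 3.21 TPM, from 509, 538 and 362 estimated counts, and overlapped both other populations.

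The log2FC of *Arrdc3* was -0.58 (SE 0.23) with the *Slc2a1* gRNA against control, and it was -0.26 without *Slc2a1* gRNA replicate 1 and -0.92 without *Slc2a1* gRNA replicate 3. With 5 gRNAs it was -0.19 (SE 0.23, adjusted p = 0.605 by edgeR, 95% interval from -0.69 to 0.30), and it was -0.49 without replicate 1 and 0.10 without replicate 3 of that population. With 5 gRNAs against the *Slc2a1* gRNA it was 0.39 (SE 0.23), and between 0.06 without *Slc2a1* gRNA replicate 1 and 0.71 without replicate 3 of the population with 5 gRNAs.

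*Arrdc4*, which is on chromosome 7 of GRCm38 from 68736995 to 68749241 on the minus strand and is a close relative of *Txnip* among MondoA targets, had 0 estimated counts in all 9 samples. At the depth of these libraries 3 counts of *Arrdc4* correspond to between 0.0393 and 0.0546 TPM, which is the level that a count of 0 allows and covers counting error only. *Txnip* in the lowest sample of the series was at 23.8 TPM. The alpha-arrestins of this group were therefore not expressed alike, and no difference in *Arrdc4* between populations was detectable at this depth.

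On estimated counts, the genes of the sensor itself, *Mlxip* and *Mlx*, had smaller fold changes against control than *Txnip* and *Klf10* in both deleted populations. With the *Slc2a1* gRNA they were also smaller than those of *Klf11* (-0.65) and *Arrdc3* (-0.58). With 5 gRNAs they were larger in size than those of these latter genes. *Mlx* was at -0.34 and *Mlxip* at -0.24 there, against *Klf11* at 0.07 and *Arrdc3* at -0.19. With 5 gRNAs, limma on log2(TPM + 1) put *Mlx* at -0.631 and *Klf10* at -0.622. On log2(TPM + 0.1) they were at -0.659 and -0.701. *Mlxip*, which encodes MondoA, is on chromosome 5 of GRCm38 from 123394798 to 123457932 on the plus strand. Control replicates had 13.1, 10.2 and 15.03 TPM, *Slc2a1* gRNA replicates had 7.51, 9.02 and 12.4 TPM, and replicates with 5 gRNAs had 6.33, 12.2 and 11.5 TPM, so that all 3 populations overlapped. Its log2FC was -0.17 (SE 0.13) with the *Slc2a1* gRNA, and between -0.28 without control replicate 2 and -0.01 without control replicate 1. It was -0.24 with 5 gRNAs (SE 0.13, adjusted p = 0.238 by edgeR, 95% interval from -0.53 to 0.05), and -0.08 without control replicate 1. Between the deleted populations it was -0.07 (SE 0.13), and 0.03 with limma on log2(TPM + 1).

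*Mlx*, which encodes the partner that MondoA and ChREBP share, is on chromosome 11 of GRCm38 from 101087277 to 101092207 on the plus strand. Control replicates had 24.4, 29.7 and 27.0 TPM, from 840, 967 and 1004 estimated counts. *Slc2a1* gRNA replicates had 15.8, 11.8 and 29.8 TPM, from 602, 562 and 707 estimated counts. Replicates with 5 gRNAs had 12.8, 17.7 and 21.6 TPM, from 630, 548 and 664 estimated counts, and were below every control. The TPM of *Slc2a1* gRNA replicate 3 was the highest of all 9 samples while its count was below every control. The mean transcript length that Salmon assigned to *Mlx* was 1121 bases in that sample and up to 1856 bases in others. The comparison of counts is thus not the comparison of TPM for this gene, and which of its transcripts were present was not examined.

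On counts the log2FC of *Mlx* was -0.19 (SE 0.12) with the *Slc2a1* gRNA, and between -0.29 without control replicate 1 and -0.07 without control replicate 2. With 5 gRNAs it was -0.34 (SE 0.12, adjusted p = 0.0757 by edgeR, 95% interval from -0.61 to -0.08), lower in all 3 pairs and without overlap, and it passed the threshold without replicate 1 of that population (adjusted p = 0.045), while it was -0.22 without control replicate 2. Against the *Slc2a1* gRNA it was -0.15 (SE 0.12). Exons of *Psmc3ip* on the other strand overlap 19.3% of the exonic bases of *Mlx*, and *Psmc3ip* had between 164 and 393 estimated counts, so that a part of the *Mlx* reads may be shared with it. *Mlxipl*, on chromosome 5 of GRCm38 from 135089890 to 135138382 on the plus strand, had at most 2 estimated counts in any sample, and no fold is given.

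**Figure D2:**
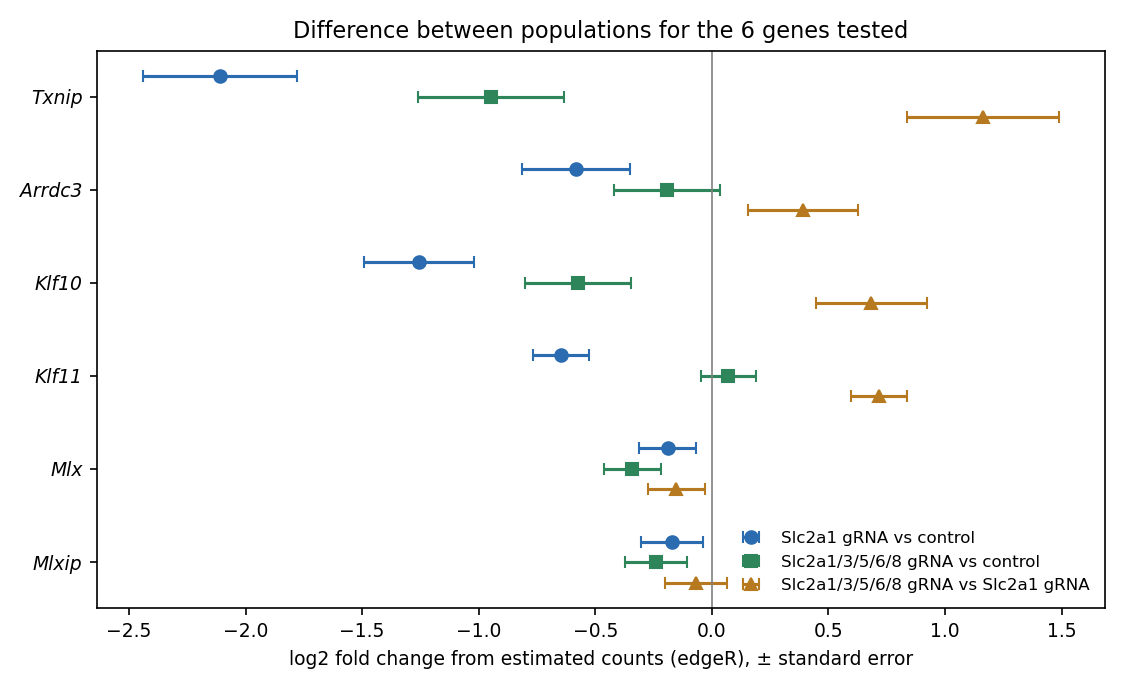
Log2FC from estimated counts in the fit over all genes (horizontal axis, with SE bars) of the 6 genes with enough counts, for the 3 comparisons. *Txnip*, *Klf10*, *Klf11* and *Arrdc3* lie left of 0 with the *Slc2a1* gRNA and right of 0 between the deleted populations, and *Klf11* lies at 0.07 with 5 gRNAs.

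In *Slc2a1* gRNA cultures against control, 6 of the 6 genes had a log2FC below 0. In that comparison 4.64% of all genes tested were called at an adjusted p under 0.05, 2.25% higher and 2.39% lower. The edgeR fit placed 3 of the 6 genes among them, and nothing is read from this count because the genes were chosen with these values known. DESeq2, which called 9.07% of all genes, gave 3 and limma on log2(TPM + 1), which called 0 of all genes, gave 0. The count was 0 without control replicate 2 and without *Slc2a1* gRNA replicate 2. It was 1 without control replicate 1, control replicate 3 or *Slc2a1* gRNA replicate 1. Of all genes, those fits called 11, 24, 72, 45 and 64 in the same order, against 642 with all 9 samples. The median log2FC was -0.61 for the 6 genes and -0.58 for the 5 other than *Txnip*, against -0.001 for all genes. Nothing is read from these medians or from the shared sign either, since the genes were chosen with these values known.

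With 5 gRNAs against control, 15.9% of all genes tested were called, 8.49% higher and 7.44% lower, and edgeR called 0 of the 6 genes. At an unadjusted p under 0.05 the number was 2 of the 5 genes other than *Txnip*, where 31.4% of all genes were past that limit. The counts over the 6 genes include *Txnip*, and nothing is read from its part in them. DESeq2, which called 18.6% of all genes, called 0. Limma on log2(TPM + 1), which called 433 of 13834 genes, also called 0. The count by edgeR was 2 without replicate 1 of the population with 5 gRNAs, where 2406 of 14531 genes were called. The median log2FC was -0.29 for the 6 genes and -0.24 without *Txnip*, against 0.007 for all genes. Between the deleted populations 2.31% of all genes tested were called, 1.36% higher and 0.947% lower, and 1 of the 6 genes was among them. Nothing is read from that count either, since it uses the *Slc2a1* gRNA samples whose values were known. It was 3 without *Slc2a1* gRNA replicate 3, 2 without replicate 3 of the population with 5 gRNAs and 0 without replicate 2 of either deleted population. The first and second of these fits called 129 and 332 of all genes, against 319 with all 9 samples. Without replicate 2 of the *Slc2a1* gRNA cultures 42 genes were called, and 135 without replicate 2 with 5 gRNAs. The median log2FC between the deleted populations was 0.54 for the 6 genes and 0.39 without *Txnip*, against 0.003 for all genes. Nothing is read from these medians, which use the same known samples. These comparisons share samples with each other, and their values are therefore given side by side only.

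Promoters of the genes were searched for the letters that MondoA-Mlx complexes and their cofactors are known to bind. RefSeq promoters (GRCm38.p6) were at hand for 7 of the genes, all except *Klf10*. The 250 bases before and the 50 bases after each start site were searched on both strands. The carbohydrate response element was searched by its consensus name, the ChoRE, with at most 2 of its 12 fixed letters mismatched. *Txnip* was the single gene of the 7 with such a match. It has the 17 letters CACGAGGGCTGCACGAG from 85 to 69 bases before its start, at chr3:96557872-96557888. Among all 32851 RefSeq promoters of the same length, 8.37% hold a match with up to 2 mismatches and 0.0274% hold an exact one. A single match among so few genes is not far from the first share, and nothing is read from it.

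The region before *Txnip* is shown because it holds this match together with 2 CCAAT boxes (CCAAT or, on the other strand, ATTGG), and that before *Arrdc4* because its gene had no count. In both, capitals mark CCAAT boxes in either direction, the ChoRE match and the E-box CACGTG. The *Txnip* stretch is chr3:96557707-96557956 on the plus strand and the *Arrdc4* stretch is chr7:68749242-68749488 on the minus strand, written 5′ to 3′ along the gene.
Txnip: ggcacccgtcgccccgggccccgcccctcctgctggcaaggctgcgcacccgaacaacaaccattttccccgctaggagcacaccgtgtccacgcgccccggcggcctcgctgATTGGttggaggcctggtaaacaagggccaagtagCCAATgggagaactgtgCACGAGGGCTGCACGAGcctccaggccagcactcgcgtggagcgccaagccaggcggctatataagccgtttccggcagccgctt
Arrdc4: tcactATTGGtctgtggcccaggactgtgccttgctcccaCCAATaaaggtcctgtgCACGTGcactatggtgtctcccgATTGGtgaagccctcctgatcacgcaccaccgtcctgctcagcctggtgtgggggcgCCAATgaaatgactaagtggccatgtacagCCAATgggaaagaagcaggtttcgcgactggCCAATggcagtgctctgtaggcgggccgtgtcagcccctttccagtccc

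The *Arrdc4* stretch holds 6 CCAAT boxes and 1 CACGTG. At least 1 CCAAT box was found in 37.4% of all promoters and at least 2 in 11.7%. The palindrome CACGTG, which is also the core E-box of Myc-Max dimers, was found in 7.15% of all promoters, and among the 7 genes in *Arrdc4*, *Klf11*, *Mlx* and 1 of the 2 promoters of *Mlxipl*. *Txnip*, *Mlxip* and *Arrdc3* had none. The stretches around this E-box in *Klf11* (chr12:24651122-24651197) and *Mlx* (chr11:101087215-101087276), both on the plus strand, are shown because these genes of the group are expressed and share it. Capitals mark CACGTG and CCAAT boxes.
Klf11: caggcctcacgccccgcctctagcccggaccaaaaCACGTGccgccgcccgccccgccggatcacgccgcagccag
Mlx: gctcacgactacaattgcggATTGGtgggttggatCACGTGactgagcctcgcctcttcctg

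A match is a description of these letters and shows neither binding nor control. The absence of a match says only that the letters are not in this window.

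The pattern of *Txnip* over the 9 samples was then compared with that of all other genes with a mean of at least 5 TPM, by Pearson's correlation of log2(TPM + 1). *Klf10* came first of 8356 genes (r = 0.985), followed by *Xlr3a* (r = 0.985), *Acadvl* (r = 0.971), *Ndc80* (r = 0.971) and *Cyp4f13* (r = 0.969). These points share libraries and fall into 3 populations, so that any gene which is high in controls and low with the *Slc2a1* gRNA ranks high. *Mlx* was at rank 1346 (r = 0.63) and *Mlxip* at rank 1894 (r = 0.56), while *Klf11* and *Arrdc3* had a mean under 5 TPM and were not ranked.

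*Xlr3a* had a mean of 55.4 ± 2.05 TPM in control cultures, 25.4 ± 10.4 TPM with the *Slc2a1* gRNA and 37.0 ± 4.70 TPM with 5 gRNAs (SD, n = 3 each). *Acadvl*, which encodes a mitochondrial enzyme of fatty acid oxidation, lay between 31.2 and 33.8 TPM in control cultures, between 21.3 and 25.4 TPM with the *Slc2a1* gRNA and between 26.9 and 27.7 TPM with 5 gRNAs. *Ndc80*, a kinetochore gene, lay between 31.8 and 34.3, between 22.6 and 24.5 and between 27.5 and 29.8 TPM in the same order. *Cyp4f13*, a cytochrome P450 gene, lay between 21.9 and 24.8, between 7.47 and 17.8 and between 13.7 and 17.03 TPM. Like *Txnip*, these 4 genes had every control sample above every other sample on TPM. On CPM, *Acadvl* and *Ndc80* overlapped between controls and cultures with 5 gRNAs.

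**Figure D3:**
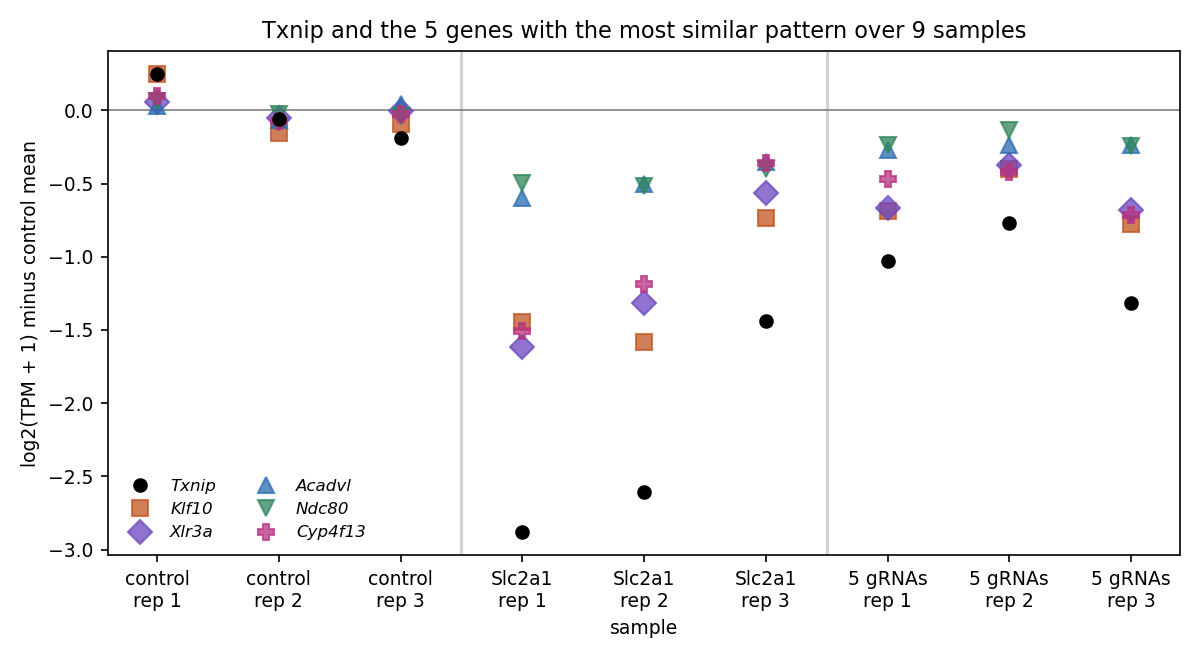
Log2(TPM + 1) of *Txnip* and the 5 genes with the most similar pattern, relative to the mean of the 3 control samples (vertical axis), in each of the 9 samples (horizontal axis, where 5 gRNAs stands for *Slc2a1/3/5/6/8* gRNA). All 6 genes are lowest in the first 2 *Slc2a1* gRNA samples, and *Txnip* is the lowest of them in each sample of both deleted populations.

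To place the group in its pathway, 6 lists of related genes were compared in the same fit, with 51 genes tested of 76 in the tables. In *Slc2a1* gRNA cultures 7 of the 51 rose and 0 fell, with 4.64% of all genes called, and in cultures with 5 gRNAs 12 rose and 3 fell, with 15.9% of all genes called. *Slc2a1*, itself targeted by a gRNA, was among the 3 that fell. Between the deleted populations 0 rose and 1 fell, with 2.31% of all genes called. The first count was 1 without control replicate 2 or *Slc2a1* gRNA replicate 2, and 2 without control replicate 3. It was 3 without *Slc2a1* gRNA replicate 1 and 4 without control replicate 1. Those fits called 11, 24, 45, 64 and 72 of all genes in the same order, against 642 with all 9 samples. The second count was 5 without control replicate 2, and 6 without control replicate 3 or replicate 3 of the population with 5 gRNAs. It was 8 without control replicate 1. Here 994, 736, 877 and 631 of all genes were called in the same order, against 2204. The 3 counts of calls, 7, 15 and 1, were 6, 9 and 1 without the replicate block. They were 7, 9 and 0 with total count normalization and 0, 3 and 0 with limma on log2(TPM + 1). Over all genes, 642, 2204 and 319 calls became 534, 1885 and 129, then 737, 1963 and 295, and then 0, 433 and 31.

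The thioredoxin system and other partners of Txnip gave 2 genes that rose and 0 that fell of 8 tested with the *Slc2a1* gRNA. With 5 gRNAs 2 rose and 2 fell, and 1 of the 2 that fell was *Slc2a1*, itself targeted by a gRNA. Of all genes tested, 4.64% and 15.9% were called in these comparisons. *Ddit4*, whose product REDD1 holds back mTORC1 and forms a complex with Txnip, was at 60.3, 42.1 and 40.8 TPM in control cultures and at 103, 85.3 and 86.1 TPM with the *Slc2a1* gRNA, a log2FC of 1.11 (SE 0.12, adjusted p = 0.0033 by edgeR). It was at 89.1, 101 and 105 TPM with 5 gRNAs, a log2FC of 1.12 against control (adjusted p = 0.000204 by edgeR). The groups did not overlap in either comparison. With 5 gRNAs against the *Slc2a1* gRNA, where *Txnip* had a log2FC of 1.16, *Ddit4* stood at 0.01 (SE 0.12, adjusted p = 0.974). *Txnrd3*, a thioredoxin reductase, rose by a log2FC of 0.65 (adjusted p = 0.0178) with the *Slc2a1* gRNA and of 1.00 (adjusted p = 0.000593) with 5 gRNAs. Leaving out each of the 6 samples compared in turn kept both *Ddit4* calls and the *Txnrd3* call with 5 gRNAs, while the other *Txnrd3* call was lost without control replicate 1, 2 or 3 or *Slc2a1* gRNA replicate 1 or 2 (adjusted p up to 0.12).

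*Txn1*, which encodes the thioredoxin that Txnip binds, was at 348, 327 and 393 TPM in control cultures, at 416, 383 and 403 TPM with the *Slc2a1* gRNA and at 271, 322 and 321 TPM with 5 gRNAs. It fell from the *Slc2a1* gRNA cultures to those with 5 gRNAs by 0.49 on the log2 scale (adjusted p = 0.0348 by edgeR), a call that was lost under total count normalization, without *Slc2a1* gRNA replicate 1, 2 or 3 and without replicate 2 or 3 of the population with 5 gRNAs (adjusted p up to 0.22). Against control its log2FC was 0.33 (adjusted p = 0.0931) and -0.16 (adjusted p = 0.332). *Slc2a4*, which encodes GLUT4, another transporter that Txnip takes off the surface, fell with 5 gRNAs (log2FC -2.09, SE 0.39, adjusted p = 0.00463), with 1.15 to 2.76 TPM in control cultures and 0.237 to 0.522 TPM in these. It was not one of the genes targeted, and its call held whichever of the 6 samples was left out. With the *Slc2a1* gRNA its log2FC was -0.74 (adjusted p = 0.25).

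Of the genes that bring glucose 6-phosphate in and out of its pool, 3 of 10 tested rose with the *Slc2a1* gRNA. With 5 gRNAs 4 of 10 rose, and 0 fell in either comparison. Of all genes tested, 2.25% and 8.49% were called higher in these comparisons, and 4.64% and 15.9% in either direction. *Hk2*, a hexokinase that makes the sugar phosphate sensed by MondoA, was at 9.28, 6.16 and 9.10 TPM in control cultures and at 16.2, 13.1 and 16.7 TPM with the *Slc2a1* gRNA (log2FC 1.06, SE 0.17, adjusted p = 0.0103 by edgeR). With 5 gRNAs it was at 8.01, 16.5 and 11.97 TPM (log2FC 0.60, adjusted p = 0.0352). *Pgm1*, a phosphoglucomutase, rose with the *Slc2a1* gRNA (0.80, adjusted p = 0.0131) and with 5 gRNAs (0.50, adjusted p = 0.0289). *Slc37a4*, which carries glucose 6-phosphate into the endoplasmic reticulum, rose with the *Slc2a1* gRNA (0.52, adjusted p = 0.0357), and *H6pd*, which oxidizes it there, rose with 5 gRNAs (0.43, adjusted p = 0.0173). With the *Slc2a1* gRNA, the call of *Hk2* was lost without control replicate 2 or 3 or *Slc2a1* gRNA replicate 1 or 2 (adjusted p up to 0.065), that of *Pgm1* without control replicate 2 or 3 or *Slc2a1* gRNA replicate 2 (up to 0.0962) and that of *Slc37a4* whichever of the 6 samples was left out (up to 0.225). With 5 gRNAs, *Hk2* and *Pgm1* were lost without control replicate 2 or 3 and without replicate 2 or 3 of the population with 5 gRNAs (adjusted p up to 0.204 and 0.182), and *H6pd* without control replicate 1, 2 or 3 or replicate 2 of the population with 5 gRNAs (up to 0.0975). The 4 calls with 5 gRNAs became 0 with total count normalization, where *Hk2*, *Pgm1* and *H6pd* had adjusted p = 0.0762, 0.0654 and 0.0503, 0 with limma on log2(TPM + 1) and 2 without the replicate block. Over all genes the calls with 5 gRNAs were 1963 with total count normalization, 433 with limma and 1885 without the block, against 2204. With the *Slc2a1* gRNA, *Slc37a4* was also lost without the block (adjusted p = 0.118) and with total count normalization (adjusted p = 0.0807).

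Of other genes described as targets of MondoA or ChREBP, 1 of 11 tested rose and 0 fell with the *Slc2a1* gRNA, where 4.64% of all genes were called. With 5 gRNAs 2 of 11 rose and 0 fell, where 15.9% of all genes were called, so that the share is close to that of all genes. *Ldha*, the lactate dehydrogenase subunit that Myc and hypoxia-inducible factors also regulate, was at 823, 529 and 431 TPM in control cultures and at 1304, 1073 and 1092 TPM with the *Slc2a1* gRNA (log2FC 1.15, SE 0.16, adjusted p = 0.0062 by edgeR). Its log2FC with 5 gRNAs was 0.63 (adjusted p = 0.019), with groups that overlapped. *Pfkfb3*, which makes an activator of glycolysis, rose with 5 gRNAs (0.93, adjusted p = 0.0282), from 0.523, 0.507 and 1.01 TPM in control cultures. With 5 gRNAs *Pfkfb3* lay between 0.869 and 1.25 TPM, so that the groups overlapped on TPM. The *Ldha* call with the *Slc2a1* gRNA was lost without control replicate 2 or *Slc2a1* gRNA replicate 2 (adjusted p up to 0.0532), and the one with 5 gRNAs without control replicate 2 or 3 or replicate 3 of the population with 5 gRNAs (up to 0.15). The *Pfkfb3* call was lost whichever of the 6 samples was left out (up to 0.169). Without the replicate block both calls with 5 gRNAs were lost (*Ldha*, adjusted p = 0.101, and *Pfkfb3*, adjusted p = 0.0639). The lipid synthesis genes of this list, *Fasn*, *Acaca*, *Acacb* and *Acly*, were not called in any of the 3 comparisons.

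*Mlx* also belongs to a wider network of Myc and Max partners that bind E-boxes. With the *Slc2a1* gRNA, where 4.64% of all genes were called, 1 of 9 other genes tested in this network rose. That gene was *Myc*, at 127, 129 and 159 TPM in control cultures and at 161, 157 and 192 TPM with the *Slc2a1* gRNA (log2FC 0.51, adjusted p = 0.0209 by edgeR). *Myc* was at 172, 240 and 290 TPM with 5 gRNAs (log2FC 0.86, adjusted p = 0.000462), where 4 of 9 rose and 1 fell, with 15.9% of all genes called. These 5 calls were 3 with total count normalization, 4 without the replicate block and 1 with limma on log2(TPM + 1). The same settings called 1963, 1885 and 433 of all genes, against 2204 in the main fit. *Tfap4*, a Myc target that binds E-boxes, rose by 0.54 (adjusted p = 0.00943), and *Mxd3*, a Max partner that opposes Myc, fell by 0.86 on the log2 scale (adjusted p = 0.0179). The *Myc* call with 5 gRNAs held whichever of the 6 samples was left out, and the one with the *Slc2a1* gRNA was lost without control replicate 1, 2 or 3 or *Slc2a1* gRNA replicate 1 or 2 (adjusted p up to 0.154). *Tfap4* was lost without control replicate 2 (0.0658), *Max* and *Mnt*, which also rose (log2FC 0.40 and 0.41), without control replicate 1, 2 or 3 or replicate 2 or 3 of the population with 5 gRNAs (up to 0.175 and 0.178), and *Mxd3* without control replicate 1 or 2 or replicate 2 or 3 of the population with 5 gRNAs (up to 0.0999).

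The lists closest to the group by protein family gave 0 calls in each of the 3 comparisons by edgeR with TMM normalization. Of 6 other alpha-arrestin and ubiquitin ligase genes tested, 1, 0 and 2 had an unadjusted p under 0.05 with the *Slc2a1* gRNA, with 5 gRNAs and between the deleted populations, where 22.0, 31.4 and 19.1% of all genes had one. DESeq2 called 1, 0 and 0 of them, against 9.07, 18.6 and 5.48% of all genes, edgeR with total count normalization also called 1, 0 and 0, and limma on log2(TPM + 1) called 0 throughout. *Arrdc2* stood at a log2FC of -0.59 (adjusted p = 0.0635 by edgeR) with the *Slc2a1* gRNA. Of 7 other Krüppel-like factors tested, 1, 2 and 2 had an unadjusted p under 0.05, shares close to those of all genes, DESeq2 called 0, 1 and 0, and limma called 0 throughout. Their log2FC values lay between -0.20 and 0.23 with the *Slc2a1* gRNA, where *Klf10* was at -1.26 and *Klf11* at -0.65.

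**Figure D4:**
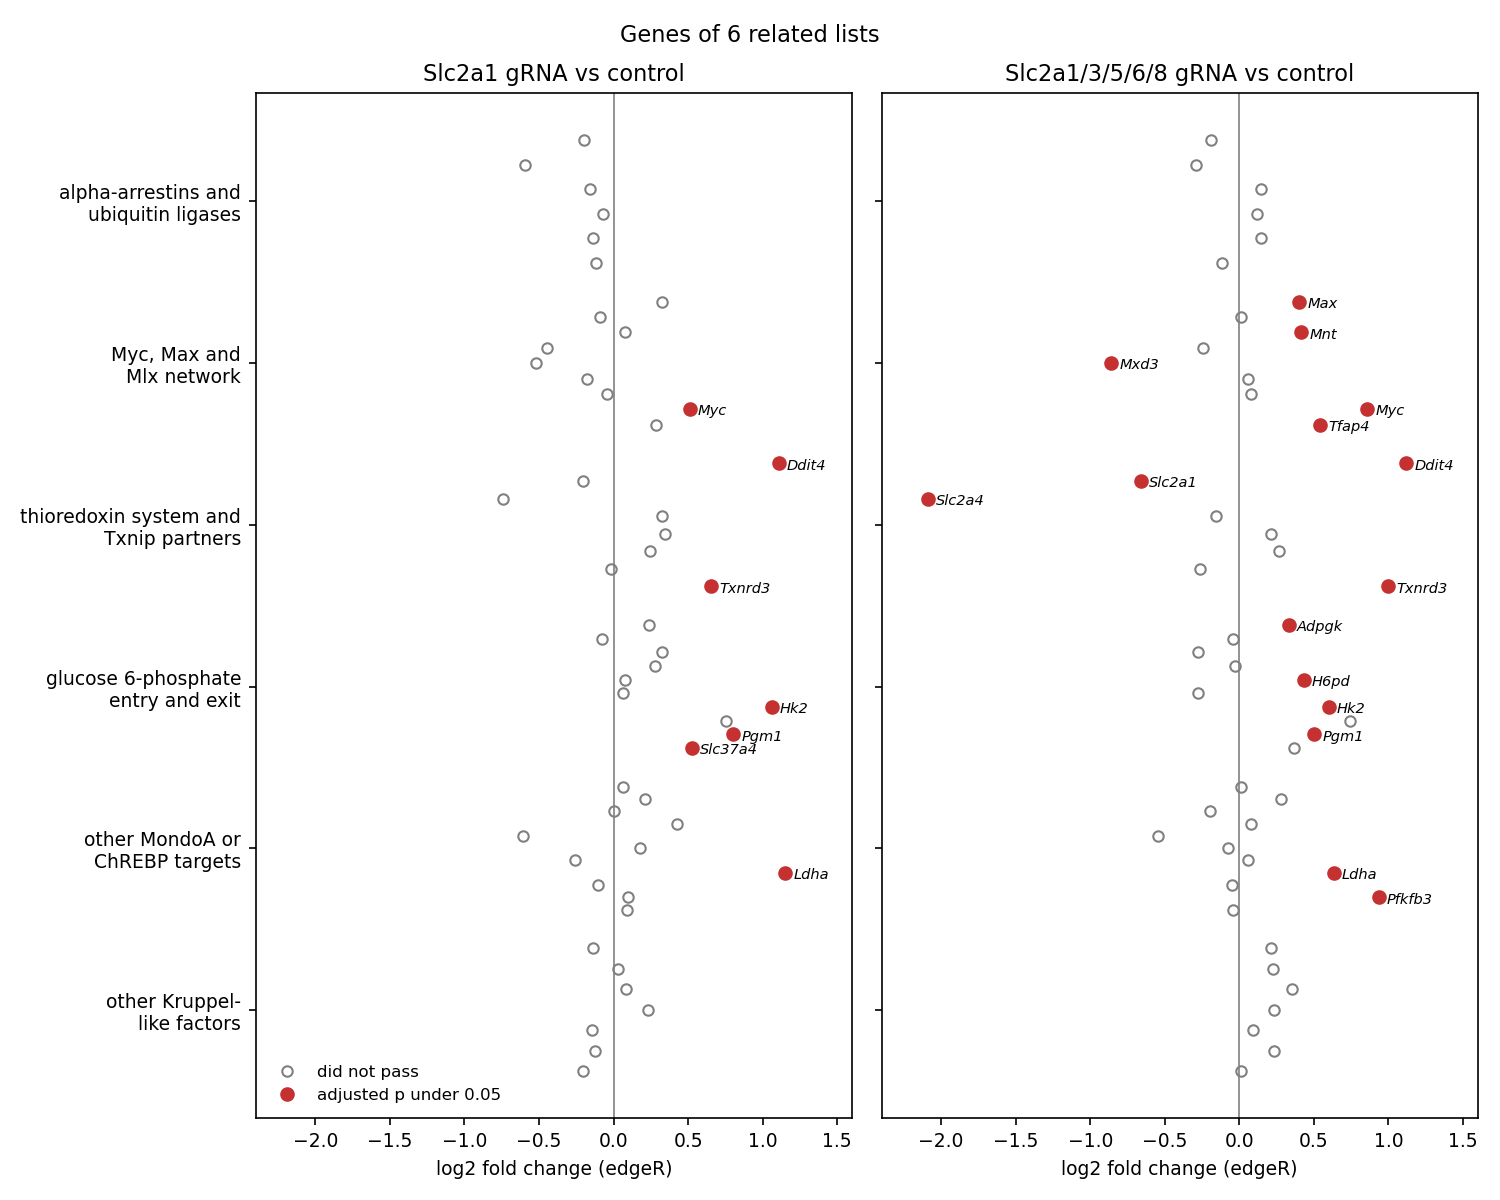
Log2FC against control (horizontal axis) of the genes of 6 related lists, with the *Slc2a1* gRNA on the left and with *Slc2a1/3/5/6/8* gRNA on the right. Each point is a gene, filled and named where its adjusted p was under 0.05. All 7 filled points on the left are higher than control, and on the right 12 are higher and 3 lower.

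*Jchain*, a plasma cell marker that antibody-secreting cells use to join antibody molecules, moved with the populations as well. It fell with the *Slc2a1* gRNA by 1.33 on the log2 scale (adjusted p = 0.00529 by edgeR) and rose with 5 gRNAs by 0.59 (adjusted p = 0.0348), while *Xbp1*, the most abundant marker, had log2FC values of 0.15 (adjusted p = 0.499) and 0.07 (adjusted p = 0.731). The remaining plasma cell markers went both ways with the *Slc2a1* gRNA, and none of them was called. *Sdc1*, *Slamf7*, *Mzb1* and *Tnfrsf17* had log2FC values of -0.35, -0.36, -0.43 and -0.97, and *Irf4* and *Prdm1* of 0.14 and 0.12. The first *Jchain* call was lost without control replicate 2 (adjusted p = 0.0532). The second was lost without control replicate 1, 2 or 3 or replicate 1 or 2 of the population with 5 gRNAs (up to 0.147). The part of *Jchain* in the values of *Txnip* and the other genes was not tested. Mitochondrial genes took 8.69, 10.5 and 6.57% of the counts in *Slc2a1* gRNA replicates 1, 2 and 3, and 8.01, 8.01 and 4.84% in the control replicates. They took 11.1, 5.84 and 4.91% with 5 gRNAs. The lowest share of each population was thus in replicate 3, which had the most *Txnip* of the *Slc2a1* gRNA cultures and the least of both other populations. Its part in these values was not tested either.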

How the data were processed

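Total RNA of 9 cultures was made into cDNA with oligo-dT primers by the SMART-Seq v4 kit and sequenced as paired 150-base reads. The authors mapped the reads with Salmon (version 1.5.1 per the submitters' processing notes) on the Galaxy platform and deposited, per sample, an estimated count, a TPM value, a length and an effective length for each of 53077 gene symbols. The transcript annotation and strand setting are not given in the sources used here. The TPM that the authors deposited were used for levels, and the estimated counts that they deposited, rounded, for tests. Deposited lengths and effective lengths, in bases, served to set the TPM of 3 counts and to describe *Mlx*.

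edgeR 4.0.16 (R 4.3.3) was run on all 9 samples with TMM normalization, its default filter on low counts, the replicate number as a block (the study states a paired test for transcript levels), the quasi-likelihood test and Benjamini-Hochberg adjustment over 13834 genes. A gene was called at an adjusted p under 0.05. Standard errors come from the F statistic, and 95% intervals from the same fit. The fit was tested on simulated data.

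Samples were grouped by their titles. The members and all gene lists were chosen with earlier results of these data known. The genes named are the 8 members, *Slc2a1*, *Txn1*, *Hk2* and *Myc*, up to 3 called genes with the smallest adjusted p per list and comparison, and the 5 genes most like *Txnip*. *Arrdc2*, 4 lipid synthesis genes, *Jchain*, *Xbp1*, the other plasma cell markers and overlapping genes were named after their values were seen. Alternatives were DESeq2 1.42.0, limma 3.58.1 on log2(TPM + 1) and log2(TPM + 0.1), no block, total count normalization, no filter, a fit of the 2 compared groups alone, and leaving out each sample. Nothing in the labels says that replicates were separate cultures, though the study calls them biological; p-values measure the spread between these samples. Replicates differed by more than sampling noise (chi-squared per degree of freedom 18.8 or more). Coordinates are from GENCODE M21 and promoters from RefSeq.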

Additional observations from a re-analysis of the deposited data

How the results depend on the processing

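Among the single-gene results, 731 alternatives left direction and side of the threshold as they were, 152 lost the call, 31 gained one and 22 turned the sign. The counts of the 6 genes include *Txnip*, and nothing is read from its part in any of them. Nothing is read from the counts in either comparison that uses the *Slc2a1* gRNA cultures, because the genes were chosen with those values known. They are given only to show how they move with the processing. The number of the 6 genes called in *Slc2a1* gRNA cultures was 3. It was 0 with limma on log2(TPM + 1), 1 with limma on log2(TPM + 0.1), and 0 to 4 with each sample left out. Over all genes 642 calls became 0, 52 and 11 to 943 in the same order. With 5 gRNAs against control the number, 0, was 2 with the low-count filter dropped and 2 with a fit of the 2 groups alone. It was 0 to 2 when each sample was left out. Over all genes 2204 calls became 2751, 2233 and 631 to 2406 in the same order. Between the deleted populations the number, 1, was 3 with no filter and 0 with a fit of the 2 groups alone. It was 0 with either limma setting, and 0 to 3 when each sample was left out. Over all genes 319 calls became 974, 116, 31 or 32, and 42 to 383 in the same order.

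For the related lists, the 7 calls with the *Slc2a1* gRNA became 15 with a fit of the 2 groups alone. That fit called 2268 of 13590 genes, against 642 of 13834. The 7 calls became 0 and 2 with limma on log2(TPM + 1) and log2(TPM + 0.1), and 1 to 7 with each sample left out. The 15 calls with 5 gRNAs became 9 with total count normalization, 3 and 4 with limma, and 5 to 16 when each sample was left out. The 1 call between the deleted populations became 6 with DESeq2, 6 with no filter, 0 with total count normalization, with a fit of the 2 groups alone and with either limma setting, and 0 to 1 when each sample was left out.

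Without the replicate block, 2 of the 6 genes were called with the *Slc2a1* gRNA, 0 with 5 gRNAs and 0 between the deleted populations. The related lists gave 6, 9 and 1 calls without the block, where 534, 1885 and 129 of all genes were called. Deviations of same-numbered samples correlated between -0.152 and 0.176, with 4 of 9 pairs over 0.1, so the data themselves do not show that the numbers pair the samples.

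Signs turned as follows, with log2 fold changes given. In *Slc2a1* gRNA cultures *H6pd* was -0.0764 and -0.0710 with limma on log2(TPM + 0.1) and log2(TPM + 1) and -0.0156 with total count normalization, and *Pfkfb3* was -0.0972 and -0.0524 with limma. Between the deleted populations *Ddit4* was -0.00399 with a fit of the 2 groups alone, *Mlxip* was 0.0245 and 0.0251 with limma, and *Slc37a4* was 0.00360 and 0.00324 with limma. When each sample was left out, *Pfkfb3* lay between -0.0697 and 0.270 and *Slc2a1* between -0.406 and 0.0416 with the *Slc2a1* gRNA, and *Arrdc3* between -0.491 and 0.105 and *Klf11* between -0.0144 and 0.119 with 5 gRNAs. Between the deleted populations *Acadvl* then lay between -0.0389 and 0.216, *Ddit4* between -0.0858 and 0.0725, *Mlxip* between -0.217 and 0.0365 and *Xlr3a* between -0.0161 and 0.516. The cause was not tested. Total count normalization called 176 genes higher and 561 lower with the *Slc2a1* gRNA, against 311 and 331, and limma on log2(TPM + 1) put the median of all genes there at -0.111 and limma on log2(TPM + 0.1) at -0.157.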
